A study of Homo sapiens with 4 samples.

Results

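Box C/D small nucleolar RNAs (snoRNAs) were measured in the human pancreatic cancer cell line PK-1 with and without overexpression of SPRR1A, a small proline-rich protein of the cornified envelope of squamous epithelium. The members were chosen by their deposited values: all entities whose symbol begins with SNORD and a digit and whose log2 TPM was above 0 in at least 1 of the 4 libraries, with host genes and antisense names left out. This rule gave 136 of 307 such symbols, and 171 were listed at 0 in all 4 libraries. They are 136 of the 13944 entities above 0 in at least 1 library and of 53826 entities in all. TPM divides the reads of a gene by its length and scales each library to a fixed total, and the lowest log2 value listed, 0, was taken as a floor at a TPM of 1. A listed 0 need not be a low level: EIF4A1, a translation factor of every cell, was listed at 0 in all 4 libraries, so that a 0 may also be a failed estimate.

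Each of the 4 conditions had 1 library, made from total RNA with an mRNA kit. No difference therefore has a replicate check, and no test across replicates was possible. In the stable model, PK-1 cells that carried SPRR1A (labelled Stable SPRR1A-overexpression) were compared with cells that carried the red fluorescent protein DsRed (Stable DsRed-overexpression), both from retroviral vectors. In the transient model, cells transfected with a plasmid for SPRR1A (Transient SPRR1A-overexpression) were compared with cells transfected with green fluorescent protein, GFP (Transient GFP-overexpression). The vector, the way it was delivered and the fluorescent control protein differ between the models and cannot be told apart. By the paper's methods, transient RNA was taken within days of transfection, whereas the stable cells were an established line. Time in culture after delivery can therefore not be told apart from these either. The log2 TPM of SPRR1A was 10.93 with SPRR1A and 0.75 with DsRed in the stable model and 16.60 with SPRR1A and 3.56 with GFP in the transient model, so that both SPRR1A libraries were above their control. The 6 epithelial and ductal markers examined, KRT7, KRT8, KRT18, KRT19, EPCAM and CDH1, lay between 7.03 and 12.94 on the log2 TPM scale in all 4 libraries. The leukocyte and endothelial markers PTPRC, CD3E, PECAM1 and VWF were listed at 0 in all 4, as were the mesenchymal COL1A2 and PDGFRB, while COL1A1 lay between 1.96 and 2.62.

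Box C/D snoRNAs are short nucleolar RNAs named for short sequence elements near their ends, box C and box D, which fold together and bind the proteins SNU13, NOP56, NOP58 and fibrillarin (FBL). Most of them base-pair with ribosomal RNA through a guide stretch beside box D, and fibrillarin then methylates the ribose of the paired nucleotide. A few, such as U3, U8 and U14, are needed for cleavage and folding of the ribosomal RNA precursor. In humans most box C/D snoRNAs lie in introns of other genes, often genes for ribosomal proteins or non-coding RNAs that carry several snoRNAs, and are trimmed from the spliced intron. Mature snoRNAs have no poly(A) tail, whereas these libraries were made with an mRNA kit. Whether the values reflect mature snoRNAs, introns or host transcripts was not tested.

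The RNAs on which the results turn are shown first, read from the hg38 genome at the RefSeq positions of GRCh38.p14 and written 5′ to 3′ as the RNA strand. Capitals mark the core of box C (TGATG, or the whole box where ATGATGA or GTGATGA was found) in the first 25 bases and box D (CTGA) in the last 15. SNORD138, SNORD4B and SNORD84 are shown because they moved past 2-fold the same way in the stable and transient comparisons, SNORD42A because it lies beside SNORD4B in the same host gene and moved the other way, and SNORD47 because it had the highest level.
SNORD138: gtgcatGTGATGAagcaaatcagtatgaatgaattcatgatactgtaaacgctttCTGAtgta
SNORD4B: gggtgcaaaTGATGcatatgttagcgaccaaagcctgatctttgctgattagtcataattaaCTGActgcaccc
SNORD84: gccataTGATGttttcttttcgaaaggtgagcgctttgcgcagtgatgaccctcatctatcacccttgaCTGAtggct
SNORD42A: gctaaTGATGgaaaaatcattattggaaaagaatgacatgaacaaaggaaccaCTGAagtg
SNORD47: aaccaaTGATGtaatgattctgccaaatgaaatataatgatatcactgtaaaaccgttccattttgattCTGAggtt
SNORD138 lies at chr5:86620506-86620568 on the plus strand, in COX7C. SNORD4B and SNORD42A lie at chr17:28723681-28723754 and chr17:28723431-28723491 on the plus strand, both in RPL23A. SNORD84 lies at chr6:31541101-31541178 on the minus strand, in DDX39B. SNORD47 lies at chr1:173864369-173864445 on the minus strand, in GAS5. All of these lie in an intron of the host's canonical transcript and in an exon of another transcript of the host.

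The letters of the boxes were looked for on the RNA strand of the 134 members whose strand the annotation gives. The core TGATG lay in the first 25 bases of 88.8% of them and in 5.22% of windows of the same length 200 bases downstream. The whole box C was found in 59.7%. Box D lay in the last 15 bases of 89.6%, against 9.70% of the downstream windows, and core and box D together in 82.8%, against 0.746%. Among the 165 SNORD entities with a sequence that were at the floor in all 4 libraries, the core was found in 81.8% and box D in 90.3%. The members' length ranged from 48 to 237 bases with a median of 78, and their median GC content was 43.4%. The check of the label against sequence therefore found the boxes in most members, and the SNORD entities at the floor carried them at similar shares.

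The share of SNORD entities above the floor differed by place in the genome. Of 304 SNORD entities with a RefSeq position, 108 lay in an intron of the host's canonical transcript and in an exon of another transcript, and 85 of these (78.7%) were above the floor. Of the 94 that lay only in an intron, 38 (40.4%) were above the floor. Of the 99 to which no host was assigned, 12 (12.1%) were above it. No host was assigned where the containing gene was not among the deposited entities or the strand was unknown. These 99 may therefore still lie in a host gene. The median of the members' mean log2 TPM was 3.23 in the first set, 1.64 in the second and 0.42 in the third. The median mean log2 TPM of the host was 8.46 over the 124 members with a host, which lie in 65 host genes. Over the 81 SNORD entities at the floor with a host, in 33 host genes, that median was 0. A host was counted once for each snoRNA it holds.

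The number of members above the floor was 110 with SPRR1A and 109 with DsRed in the stable model and 121 with SPRR1A and 126 with GFP in the transient model. Both transient libraries thus held more members than both stable libraries. All entities went the same way. Of 13761 above the floor in at least 1 control library, 797 were at the floor in stable DsRed and 203 in transient GFP. Of 13549 above it in at least 1 SPRR1A library, 464 were at the floor in the stable and 298 in the transient library. Of the 136 members, 96 were above the floor in all 4 libraries, 14 in 3, 14 in 2 and 12 in 1. The median log2 TPM of the members above the floor was 2.86 with SPRR1A and 2.99 with DsRed in the stable model and 2.94 with SPRR1A and 2.89 with GFP in the transient model. Their summed TPM was 1430 with SPRR1A and 1546 with DsRed in the stable model and 1635 with SPRR1A and 1849 with GFP in the transient model, which is between 0.143% and 0.185% of the listed total of a library. In both models the sum was lower in the SPRR1A library than in its control. In the transient model the median log2 difference of all entities was also negative, at -0.19, whereas it was 0.07 in the stable model. The lower transient sum is therefore not particular to the members.

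The 10 members with the highest mean level were SNORD47, SNORD80, SNORD36A, SNORD104, SNORD22, SNORD68, SNORD29, SNORD31, SNORD96A and SNORD88B. Most guide ribose methylation of the large-subunit rRNA, SNORD36A and SNORD68 have targets in both subunits, and SNORD22 is an orphan with no known methylation target. Over the 4 libraries each of the 10 varied by between 0.21 and 0.88 on the log2 scale, and none differed by over 2-fold in either model. SNORD47, in the host RNA GAS5, had log2 TPM values of 6.81 with SPRR1A and 7.11 with DsRed in the stable model and 6.65 with SPRR1A and 6.79 with GFP in the transient model. SNORD104, in SNHG25, had 6.01, 6.33, 5.96 and 6.35 in the same order. Both were lower in the SPRR1A library than in its control in either model, by less than the threshold. In the transient model, where the median difference of all entities was -0.19, SNORD47 differed by -0.14 and SNORD104 by -0.40. The transient difference of SNORD47 was thus smaller in size than that median.

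**Figure D1:**
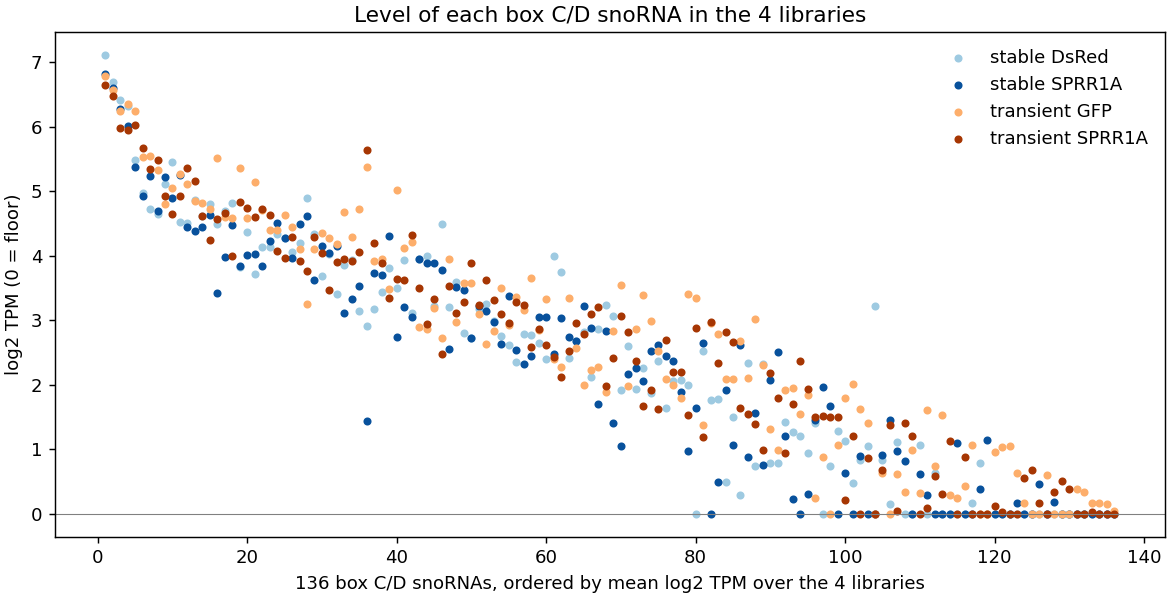
Log2 TPM (vertical axis, floor at 0) of each of the 136 box C/D snoRNAs, ordered along the horizontal axis by mean log2 TPM, with 1 point per library in 4 colours. Points of a member lie close together at the left, up to 7.11 for SNORD47 in stable DsRed, and spread to and from the floor at the right; SNORD3A, with 1.44 and 2.91 in the stable and 5.64 and 5.37 in the transient libraries, stands out in the middle.

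Many members above the floor in some libraries and at 0 in others were low. The 8 members above the floor in both transient libraries and in neither stable library were SNORD11, SNORD15A, SNORD1B, SNORD20, SNORD37, SNORD3B-2, SNORD63 and SNORD7, and their highest log2 TPM was 1.54. The 7 members above the floor only in transient GFP cells reached 1.05 and included 4 of the 6 SNORD116 copies, SNORD116-14, SNORD116-19, SNORD116-20 and SNORD116-24. SNORD116 RNAs come from the imprinted region of chromosome 15 that is deleted in Prader-Willi syndrome and have no known rRNA target. Others reached higher values, among them SNORD141A, above the floor only in stable DsRed, at 3.22, SNORD45A, listed at 0 only in stable DsRed and at 3.34 in transient GFP, and SNORD36B, listed at 0 only in stable SPRR1A and at 2.97 in the transient SPRR1A library. Just inside the floor rule were SNORD116-14 (0.05 in transient GFP), SNORD109A (0.15), SNORD136 (0.16) and SNORD37 (0.17), whose values in the other libraries were 0 or, for SNORD37 in transient SPRR1A cells, 0.03. Just outside the rule all 171 symbols share the value 0, among them the U3 copies SNORD3B-1, SNORD3C and SNORD3D and the U13 RNA SNORD13.

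The first comparison asked how the snoRNAs differed with stable SPRR1A overexpression. Of the 118 members above the floor in at least 1 of the stable libraries, 9 (7.63%) were higher and 15 (12.7%) lower by over 2-fold in SPRR1A cells, and 94 lay within the threshold. Among all 13310 entities so tested, 0.526% were higher and 0.421% lower. The members' median log2 difference was -0.07, and that of all entities was 0.07. The standard deviation of the differences was 0.81 over the members and 0.28 over all entities. The members therefore spread more widely in both directions, about a median near 0. In bulk RNA, a level lowered in every cell and one lost from some of the cells cannot be told apart.

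The 9 higher members were SNORD46, SNORD50A, SNORD42A, SNORD45A, SNORD12C, SNORD138, SNORD88A, SNORD116-21 and SNORD98. SNORD46, a guide for the large-subunit rRNA, had log2 TPM values of 2.61 in the stable SPRR1A and 0.30 in the DsRed library, a difference of 2.31. SNORD50A, a large-subunit guide in SNHG5, stood at 1.96 against the floor. SNORD42A, a small-subunit guide in RPL23A, stood at 2.51 against 0.79, a difference of 1.72. SNORD45A, SNORD116-21 and SNORD98 also rose from the floor, to 1.64, 1.14 and 1.09, so that their differences rest on the value the floor stands for. SNORD12C and SNORD88A, both large-subunit guides, differed by 1.44 and 1.29. The higher library of each of the 9 was at most 2.61 on the log2 TPM scale, below the stable libraries' medians over the members above the floor of 2.86 and 2.99.

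The lower members began with SNORD141A, which was listed at 0 in stable SPRR1A and at 3.22 in stable DsRed cells. Its letters are 100% identical to those of SNORD141B, on chromosome 5, when the 2 are read on opposite strands, and reads from the copies could have been split between them. SNORD141B stood at 3.78 in the stable SPRR1A and 4.50 in the DsRed library, and the summed TPM of the pair differed by -1.21 on the log2 scale. SNORD36B, in RPL7A, fell from 1.76 to the floor. SNORD43, a small-subunit guide in RPL3, stood at 1.40 in SPRR1A and 3.06 in DsRed cells, a difference of -1.66. SNORD4B, a small-subunit guide, stood at 0.76 against 2.33, a difference of -1.57. SNORD99 and SNORD15B, both large-subunit guides, differed by -1.53 and -1.45. The U3 RNA SNORD3A stood at 1.44 against 2.91, a difference of -1.47. SNORD51 (-1.29), SNORD142 (-1.28), SNORD18B (-1.21), SNORD24 (-1.16), SNORD30 (-1.06), SNORD116-4 (-1.06), SNORD94 (-1.04) and SNORD84 (-1.02) completed the list. In all, 5 of the 15 reached the floor, and SNORD99 and SNORD30 were the only ones whose control value, 4.003 and 4.49, exceeded a log2 TPM of 4.

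The second comparison asked the same of transient overexpression. Of 133 members above the floor in at least 1 of the transient libraries, 4 (3.01%) were higher and 15 (11.3%) lower by over 2-fold in SPRR1A cells, and 114 lay within the threshold. Among all 13717 entities tested, 0.19% were higher and 0.7% lower. The members' median log2 difference was -0.14, and that of all entities was -0.19. The split depended on scaling: after centring on the well expressed entities, whose median difference was -0.18, 11 members were higher and 9 lower, with a median of 0.038. When the total was scaled without SPRR1A, 8 were higher and 11 lower.

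The 4 higher members were SNORD42B, SNORD138, SNORD69 and SNORD19. SNORD42B, a small-subunit guide in RPL23A, stood at 1.499 in transient SPRR1A cells and at the floor in transient GFP cells. SNORD69, a large-subunit guide, and SNORD19 both lie in GNL3, a gene for a nucleolar GTPase, and differed by 1.25 and 1.08. The higher library of all 4 was at most 1.499 on the log2 TPM scale, within reach of the floor. In the stable model the differences of SNORD42B, SNORD69 and SNORD19 were 0.93, 0.04 and 0.82, none past the threshold.

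Among the 15 lower members of the transient model, SNORD84 stood at 1.52 in SPRR1A and 3.41 in GFP cells, a difference of -1.88. SNORD45C, a small-subunit guide in RABGGTB, stood at 1.67 against 3.40, a difference of -1.73. SNORD119, a large-subunit guide in SNRPB, stood at 1.39 against 3.02, a difference of -1.64. These 3 were above the floor in all 4 libraries, and their transient GFP value was the highest of the 4. SNORD124 fell from 1.63 to the floor, and SNORD1C and SNORD1B, both in SNHG16, differed by -1.59 and -1.22. SNORD103A differed by -1.52, SNORD4B by -1.33 and SNORD46 by -1.04. SNORD2, a large-subunit guide in EIF4A2, stood at 3.64 against 5.03, a difference of -1.38, and was the best expressed member to pass the threshold in this model. SNORD54, SNORD144, SNORD6, SNORD116-20 and SNORD11 differed by -1.07 to -1.003.

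**Figure D2:**
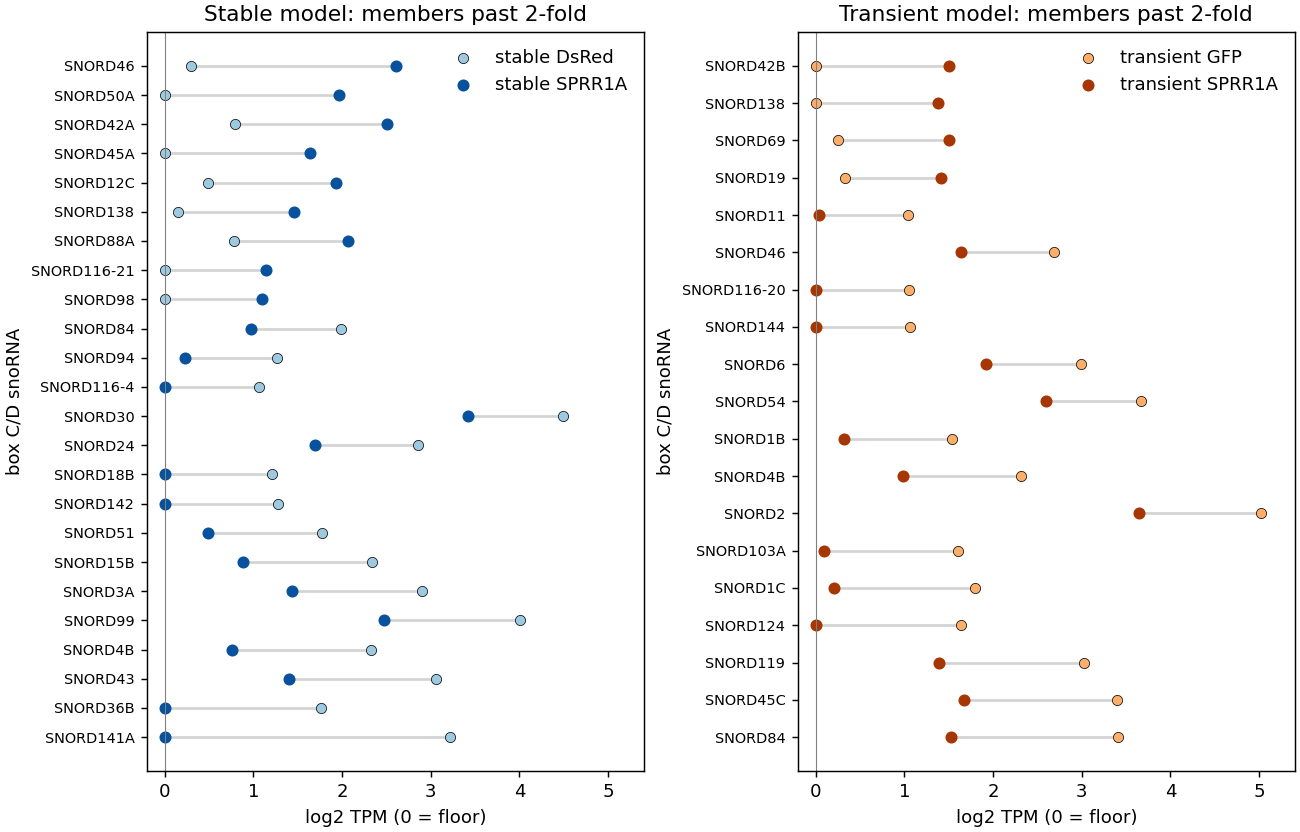
Log2 TPM (horizontal axis, floor at 0) of the members past the 2-fold threshold in the stable model (left, 24 members) and the transient model (right, 19 members), with 1 point for the SPRR1A library and 1 for its control, joined by a line. Most lines lie at low values or touch the floor, and in the transient model 15 of the 19 run towards a lower SPRR1A value.

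In both models, 4 members passed the threshold. The share of all entities that did so was not computed. Each model alone had 0.526% of all entities higher and 0.421% lower (stable), and 0.19% and 0.7% (transient). Besides SPRR1A, the paper names SNORD138 as the sole entity raised in both models. It lists SNORD4B and SNORD84 among those lowered in both. SNORD138, in COX7C, was higher in SPRR1A cells in both, with 1.46 against 0.15 in the stable and 1.38 against the floor in the transient model. SNORD4B was lower in both, with 0.76 against 2.33 and 0.98 against 2.31, and its control values were alike. SNORD84, in DDX39B and with no known methylation target, was lower in both, with 0.97 against 1.99 and 1.52 against 3.41. SNORD46 went in opposite directions, with 2.61 against 0.30 and 1.64 against 2.68. On a log2(TPM + 1) scale SNORD4B alone stayed past the threshold in both models, at -1.16 and -1.002. The transient difference of SNORD46 was -0.86 after centring and did not then pass.

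Another 20 members passed in the stable model only and 15 in the transient model only, and for none of them was the difference between models tested. The models share no library. Over the 96 members above the floor in all 4 libraries, the stable and transient differences had a Spearman correlation of 0.17, a description over members that share libraries, and 49 of 96 (51.0%) had the same sign. Among the 12446 other entities above the floor in all 4, that correlation was -0.18. The SPRR1A libraries both lay above both controls for 16 of the 136 members (11.8%), against 1.41% of the 13944 entities, and below both controls for 17 (12.5%), against 9.99%. In the transient model 12343 of all 13717 entities tested had a negative difference, against 75 of 133 members. Few entities could therefore lie above both controls, and the gap between 11.8% and 1.41% is not read as an excess of raised members. Among the 16 were SNORD42A and SNORD42B, SNORD19 and SNORD69, and SNORD138, and among the 17 were SNORD4B, SNORD43, SNORD45C and SNORD84.

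**Figure D3:**
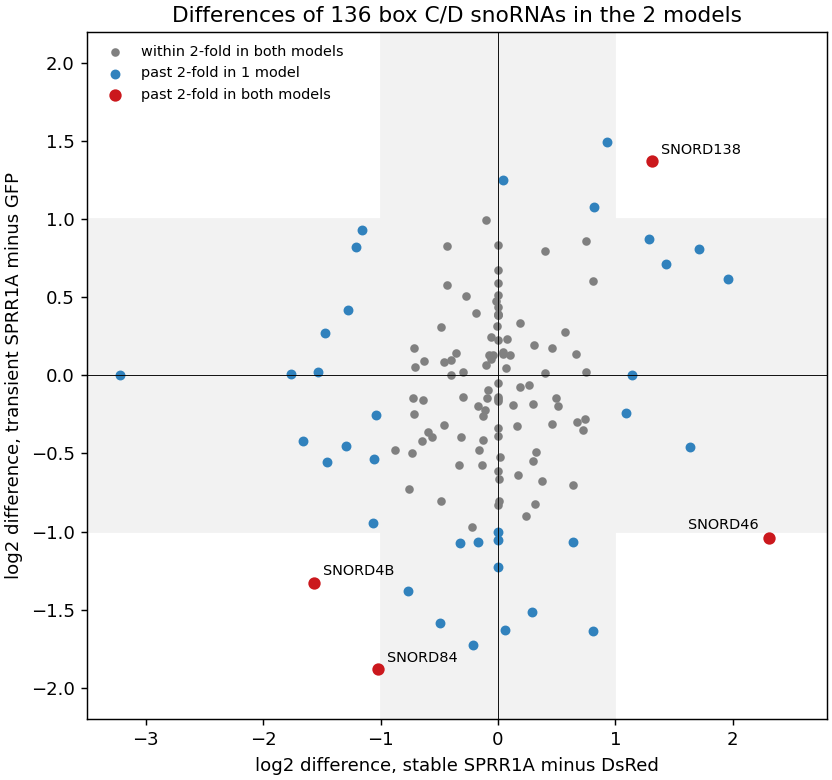
Log2 difference of each of the 136 members in the stable model (horizontal axis, SPRR1A minus DsRed) and the transient model (vertical axis, SPRR1A minus GFP), with the region within 2-fold shaded. The 4 red points passed the threshold in both models, and the Spearman correlation over the 93 other members above the floor in all 4 libraries was 0.15.

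The differences depended on level. In the stable model, over 2-fold differences were found for 6 of 21 members (28.6%) with a mean log2 TPM below 1, for 16 of 44 (36.4%) with a mean from 1 to 3 and for 2 of 53 (3.77%) with a mean of at least 3. Those 2 were SNORD30 and SNORD3A. In the transient model the shares were 27.8% of 36, 18.2% of 44 and 1.89% of 53, the last being SNORD2. Box H/ACA snoRNAs and Cajal body RNAs, the other large class of guide RNAs, gave 19.2%, 14.8% and 0% in the stable and 16.1%, 11.1% and 0% in the transient model over the same bins. MicroRNAs gave 19.0%, 23.5% and 0%, and 22.1%, 26.5% and 6.67%. The other entities gave 2.31%, 1.25% and 0.101%, and 2.35%, 0.865% and 0.0449%. High shares at low levels were therefore common to the 3 classes of short RNAs, and the differences between these classes were not tested.

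**Figure D4:**
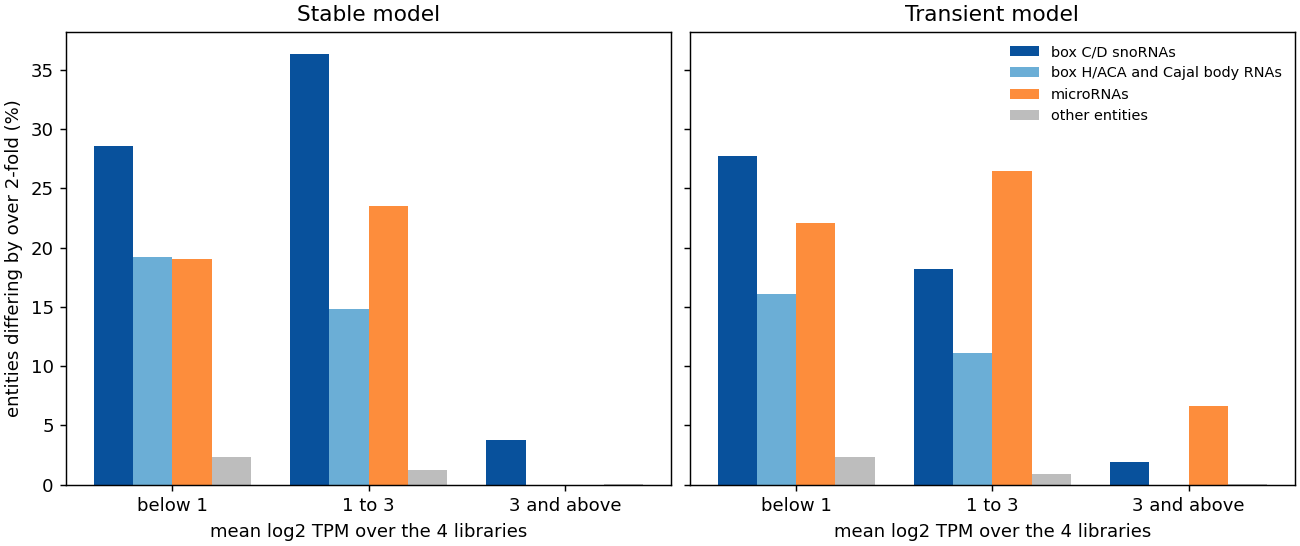
Share of entities (vertical axis, percent) that differed by over 2-fold, by mean log2 TPM over the 4 libraries (below 1, 1 to 3, 3 and above) and class of RNA, in the stable (left) and transient model (right). Bars of the short RNA classes are high in the lower bins, up to 36.4% for box C/D snoRNAs at 1 to 3 in the stable model, and fall to 3.77% and 1.89% for box C/D snoRNAs in the top bin.

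Low values of short RNAs also rested on little sequence. TPM multiplied by length moved in steps of 0.548 with SPRR1A and 0.418 with DsRed in the stable model and 0.364 with SPRR1A and 0.590 with GFP in the transient model, as taken from low values of all short RNAs, of which 64.9% to 89.2% per library lay within 0.1 of a whole step. Taken from the members alone, the step was 0.555 in stable DsRed and 0.601 in transient SPRR1A cells and the same in the other libraries. If 1 step of all short RNAs is 1 aligned base, the median member above the floor was covered 13.2, 19.1, 21.1 and 12.5 times in these libraries. For a member at the floor the limit was 1.82, 2.39, 2.74 and 1.69 times, if 0 stands for a TPM of at most 1. A 0 from a failed estimate sets no such limit. Under 10-fold coverage lay 41, 32, 37 and 53 of the members above the floor. With the step of the members alone, the medians were 14.4 in stable DsRed and 12.8 in transient SPRR1A cells, and 41 and 51 members lay under 10-fold coverage there. Read counts are not given, so that the depth is unknown, and the part of counting error in the differences was not tested.

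Host genes stayed within the threshold. Annotation placed 124 members in 65 host genes, 123 in an intron of the canonical transcript and SNORD118 in an exon of TMEM107. The other 12 members were assigned no host. No host gene differed by over 2-fold in either model, with differences from -0.43 to 0.34 in the stable and from -0.42 to 0.09 in the transient model on the log2 scale. Of all entities, 0.526% were higher and 0.421% lower by over 2-fold in the stable model. The shares were 0.19% and 0.7% in the transient model, so that a count of 0 among 65 hosts is near the background. Across members, their difference and that of the host had a Spearman correlation of 0.14 over 112 members in the stable and -0.06 over 123 in the transient model. The levels of members and hosts had correlations between 0.06 and 0.24 within a library. Members of a host share its value, so that these are descriptions only. EIF4A1, the host of SNORD10, and TMEM107 were listed at 0 in all 4 libraries and give no information on a difference.

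Ribosomal protein genes were the hosts of 38 members in 16 genes. Of the 37 of these tested in each model, 2 were higher and 6 lower with stable and 1 higher and 3 lower with transient overexpression, with median differences of -0.06 and 0.01. Of 39 members in 15 non-coding or pseudogene hosts, 3 were higher and 2 lower among the 37 tested in the stable model, and 0 were higher and 3 lower in the transient model, with medians of -0.10 and -0.16. Of 47 members in 34 other protein-coding genes, 3 were higher and 4 lower among 38, and 3 higher and 8 lower among 47, with medians of 0.03 and -0.14. Both directions therefore appeared in every class of host in the stable model. Over all members tested, 7.63% were higher and 12.7% lower in the stable and 3.01% and 11.3% in the transient model. Among all entities these shares were 0.526% and 0.421%, and 0.19% and 0.7%. Differences between the classes of host were not tested.

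Within a host, members past the threshold in both directions were found in 1 of the 16 hosts with at least 3 members in each model, RPL23A. These 16 hosts hold 64 members, and counting differences of any size 14 of them had both signs with stable and 15 with transient overexpression. In RPL23A, whose own log2 TPM was 11.05 in the stable SPRR1A and 11.09 in the DsRed library, SNORD42A differed by 1.72 and SNORD4B by -1.57, while SNORD42B differed by 0.93 and SNORD4A by -0.09. In the transient model SNORD42B differed by 1.499 and SNORD4B by -1.33, SNORD42A differed by 0.81, and the host by -0.09. In RPL7A, SNORD36B (-1.76) and SNORD24 (-1.16) were lower in the stable model, and SNORD36A (-0.13) and SNORD36C (0.16) were not.

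The 2 largest groups lie in non-coding host RNAs. Of the 8 members in SNHG1, SNORD30 alone passed the threshold, in the stable model, with 3.43 with SPRR1A and 4.49 with DsRed in the stable model and 4.56 with SPRR1A and 5.51 with GFP in the transient model. Its transient difference was -0.94, and SNHG1 itself differed by 0.00 and -0.02. None of the 7 members in GAS5 passed in either model, with differences from -0.30 to 0.30 and from -0.57 to 0.48, and GAS5 differed by -0.04 and -0.08. In each group 6 members had a negative difference in the transient model, in which the median of all entities was -0.19.

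**Figure D5:**
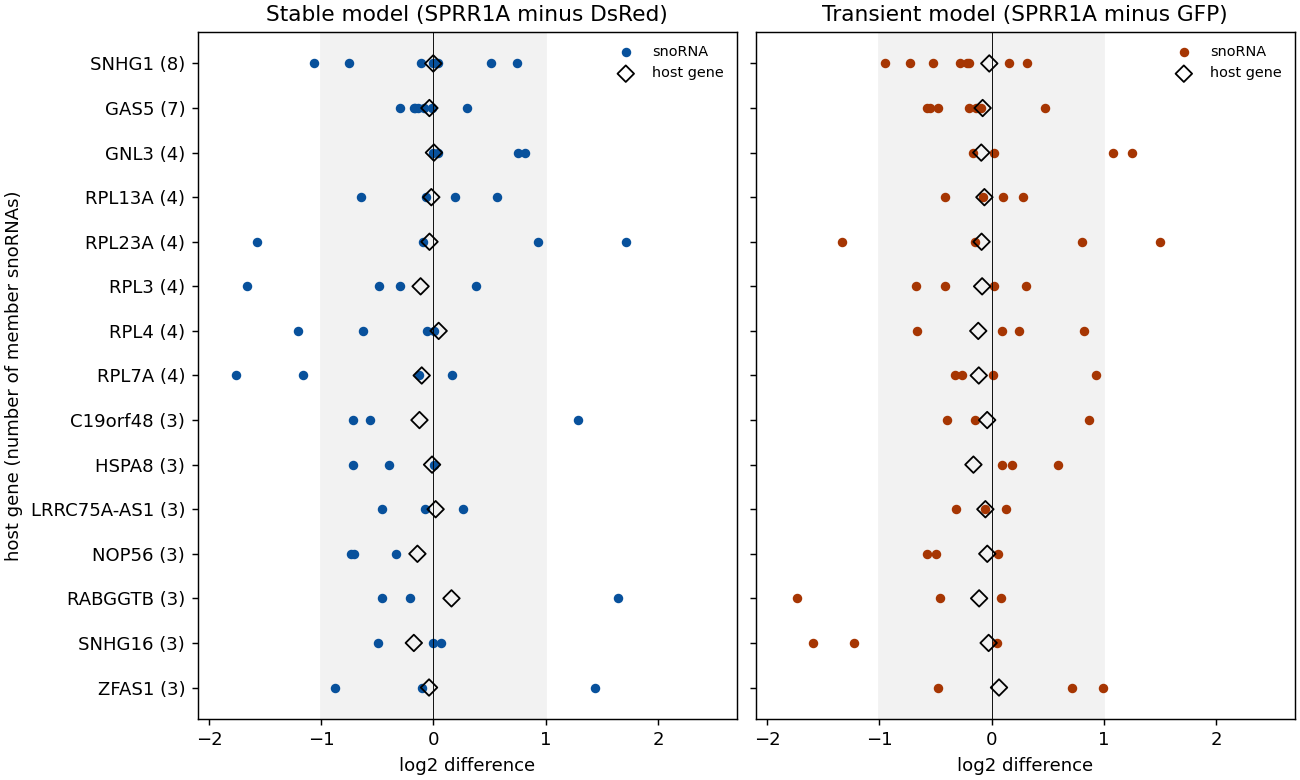
Log2 difference (horizontal axis) of the members (points) of 15 of the 16 host genes with at least 3 members (vertical axis, number of members in parentheses) and of the host gene itself (open diamonds), in the stable (left) and transient model (right), with the region within 2-fold shaded. The diamonds lie near 0 in both models while points spread to both sides, as in RPL23A with 1.72 and -1.57 in the stable model.

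Among the snoRNAs of rRNA precursor processing, 13 symbols were examined and 9 were above the floor in at least 1 library. SNORD3A (U3), which acts in the early cleavages towards the small-subunit rRNA, had log2 TPM values of 1.44 with SPRR1A and 2.91 with DsRed in the stable model and 5.64 with SPRR1A and 5.37 with GFP in the transient model. It was lower by over 2-fold in stable SPRR1A cells, and differed by 0.27 in the transient model. Both transient libraries were above both stable libraries by over 2-fold. SNORD3B-2, whose letters are 99.5% identical, was at the floor in the stable libraries and at 1.21 and 0.98 in the transient SPRR1A and GFP libraries, and reads of the copies may have been shared. Their summed TPM gave the same stable difference, -1.47, and 0.27 in the transient model.

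SNORD118 (U8), required for the large-subunit rRNA, had values of 2.37 against 2.06 with stable and 2.19 against 1.999 with transient overexpression. Its values were slightly above the control in both models and within the threshold. The 5 copies of U14, SNORD14A to SNORD14E, which act in the formation of the small-subunit rRNA, differed by -0.72 to 0.30 in the stable and by -0.37 to 0.59 in the transient model. SNORD22, listed beside them, had 5.38, 5.49, 6.03 and 6.25 and differed by -0.11 and -0.22. Of the 9, only SNORD3A passed the threshold, and only in the stable model.

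The proteins of the pathway were within the threshold, which 0.526% (higher) and 0.421% (lower) of all entities passed with stable and 0.19% and 0.7% with transient overexpression, so that a count of 0 in short lists is near the background. Of the 4 core proteins, 0 were past it in either model, with FBL at 9.25 with SPRR1A and 9.42 with DsRed in the stable model and 8.75 with SPRR1A and 8.94 with GFP in the transient model. The medians of the 4 were -0.15 in both models. Of the 8 assembly factors (NUFIP1, ZNHIT3, ZNHIT6, RUVBL1, RUVBL2, PIH1D1, RPAP3 and NOPCHAP1), 0 were past it, with differences from -0.05 to 0.20 in the stable and from -0.21 to 0.07 in the transient model. Of the 5 genes of intron release and trimming (DBR1, AQR, XRN2, EXOSC10 and PARN), 0 were past it, with medians of 0.15 and -0.18. The 4 core proteins of box H/ACA particles likewise gave 0, with medians of -0.06 and -0.09.

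Members also differed between the models. Between the controls, 23 of 130 members (17.7%) were higher in transient GFP than in stable DsRed cells by over 2-fold, against 6.86% of 13761 entities, and 10 (7.69%) were lower, against 0.661%. Between the SPRR1A libraries, 19 of 127 (14.96%) were higher in the transient library, against 2.61% of 13549 entities, and 4 (3.15%) were lower, against 0.974%. Both transient libraries were above both stable libraries by over 2-fold for SNORD12B, SNORD25, SNORD35A, SNORD36B, SNORD3A and SNORD45A, 6 of 136 against 1.89% of all entities. Both were below for SNORD141B and SNORD58A, against 0.201%. SNORD25, in SNHG1, had 3.84 and 3.82 in stable SPRR1A and DsRed and 4.84 and 5.36 in transient SPRR1A and GFP cells. SNORD58A, in RPL17, had 2.64 and 2.52, and 1.19 and 1.38. In none of these comparisons did a host gene of a member differ by over 2-fold.

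Several members have close copies, which bears on how far 1 symbol can be read alone. SNORD62A and SNORD62B, in PRRC2B, have the same letters, and SNORD62A was above the floor only in transient GFP cells, at 0.39, while SNORD62B stood between 2.65 and 3.06 in all 4. Their summed TPM differed by 0.40 and -0.22. The SNORD116 copies were 81.6% to 98.9% identical to each other. SNORD45A and SNORD45C, which passed in different models, were 84.5% identical, and SNORD88A was 86.6% identical to SNORD88B. The authors' treatment of reads that match several copies is not given in the sources used here.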

How the data were processed

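RNA was sequenced from 4 PK-1 libraries, 1 per condition, made with a stranded mRNA kit. Per the paper's methods, Strand NGS at default parameters aligned read pairs to transcripts of hg38, and the authors deposited log2 TPM per gene, with a floor at 0. Software version, annotation and the treatment of reads with several matches are not given in the sources used here. Depth in reads is unknown.

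From the deposited log2 values, differences of SPRR1A minus control were computed for every entity above the floor in at least 1 of the libraries compared. A log2 difference above 1 or below -1, the 2-fold threshold of the study, was called. The members and gene lists were chosen with earlier results of these data known. Members named are those past the threshold in both models, the 8 largest differences per model and direction, the 10 highest means, the rRNA precursor processing snoRNAs, hosts with at least 3 members, and members at the edge of the floor rule. The remaining members past the threshold, those at the floor in some libraries, those that differ between the models and the close copies were named after their values were seen.

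Positions came from RefSeq GRCh38.p14 by Entrez Gene identifier (all 136 members), and hosts from GENCODE 44. A host is the shortest same-strand gene in the tables that contains the member, read-through genes left out. The values of 1 host gene and 1 sequence are not reported here. Alternatives were log2(TPM + 1), log2(TPM + 0.1), a TPM of at least 5, both libraries above the floor, centring, SPRR1A left out and 1 member per host. The floor set to a TPM of 0, summed copies, steps of all short RNAs and the core of box C were added after the data were seen. The 2-fold calls were tested on simulated data drawn from entities well above the floor, and the value steps on simulated short RNA values. Calls near the floor, where most members past the threshold lie, were not covered by that check. Biopython 1.88, matplotlib 3.10.9, scipy 1.17.1, pandas 2.3.3 and numpy 2.4.6 were run in Python 3.11.15.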

Additional observations from a re-analysis of the deposited data

Results flagged for a closer look

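SNORD46 was taken up because its difference had opposite directions in the 2 models, 2.31 (stable) and -1.04 (transient) on the log2 scale. With 1 library per condition the difference between models was not tested. Its level was 2.61 against 0.30 with stable and 1.64 against 2.68 with transient overexpression, so that stable DsRed was the low value of the 4.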

How the results depend on the processing

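No paired analysis was possible because the groups compared held 1 library each and no result comes from a test. In the stable model the counts of 9 higher and 15 lower members became 4 and 7 on the log2(TPM + 1) scale, 2 and 8 at a TPM of at least 5, and 3 and 9 with 1 member per host gene, and 5 were higher when both libraries had to be above the floor. In the transient model the 4 higher and 15 lower became 0 and 7 on the log2(TPM + 1) scale, 0 and 7 at a TPM of at least 5, and 1 and 9 with 1 member per host gene. There, 2 were higher with both libraries above the floor and 7 with the floor set to a TPM of 0. Centring gave 11 higher and 9 lower with a median of 0.038, and leaving SPRR1A out of the total gave 8 higher with a median of -0.0072. Other alternatives changed the counts by at most 1.5 times and the medians by less than 0.1. On the log2(TPM + 1) scale 6 of the named members past the threshold lost the 2-fold call in each model. The 43 named members also include ones with no call to lose, such as those with the highest mean level. Under the alternatives run for the named members, 0 past the threshold changed direction. None could have: adding to the TPM keeps the order of values, and the rescalings shift differences by less than the threshold. The result is therefore no check of direction. A TPM of at least 2 left 93, 95, 102 and 104 members in the SPRR1A and DsRed libraries of the stable model and the SPRR1A and GFP libraries of the transient model. Values near the floor set most counts, and no spread between replicates can be had.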
